A study of Mus musculus with 108 samples.

Results

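Microglia, the resident macrophages of the brain, were compared between brains carrying metastases that had received 1 fraction of 10 Gy of whole-brain radiotherapy (labelled day 3) and unirradiated brains carrying metastases. The members are 13 of the 108 libraries of the series: 3 microglia libraries labelled 1x10 Gy D3, and 10 unirradiated ones, 5 from the tumour stage labelled small and 5 from the stage labelled large. All mice, irradiated or not, were nude mice of the strain CAnN.Cg-Foxn1nu/Crl (Balb/C athymic nude), which lacks a thymus and so most T cells. The metastases model the spread of lung tumour to the brain. The irradiated libraries carry the stage label not stratified, so they were set against the mean of the small and the large stage. The labels give neither the animals' age nor the event from which the day is counted. Nor do they say whether each library is a different mouse, and the p-values reflect library-to-library spread that may be technical. Libraries of 2 further kinds serve for tested contrasts. The first are microglia of a course of 5 fractions of 2 Gy, labelled day 3 (4 libraries). The second are monocyte-derived macrophages, labelled BMDM, after the same single 10 Gy on day 3 (3 libraries) and without irradiation (5 small, 5 large). Levels are also given for microglia after 5x2 Gy on day 5 (4 libraries) and day 10 (3), and for tumour-free unirradiated microglia (4). The microglia fit also took in tumour-free microglia titled 5x2 D3 (3 libraries) and 5x2 D5 (3). For Ldhb alone, monocytes and granulocytes after 1x10 Gy and large-stage monocytes are read as well.

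Ionising radiation breaks DNA, and the break-sensing kinases stabilise p53, a transcription factor that is otherwise marked for degradation by its own target Mdm2. Stabilised p53 raises transcription of genes that stop the cell cycle, repair DNA, lower growth signalling or start cell death, and of Mdm2 itself, which closes a feedback loop. Microglia are long-lived cells that divide rarely in the healthy brain and multiply when it carries a tumour.

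The 13 libraries held 7589554 to 18099551 counts. The 3 irradiated libraries carried the identity of microglia: the summed level of 26 homeostatic microglia genes was 41400 to 41800 CPM (counts scaled to library size, with TMM factors) in 1x10 Gy libraries and 30100 to 52200 CPM in unirradiated libraries. P2ry12, the purinergic receptor that guides microglial processes, read 2031, 1845 and 2034 CPM in the 1x10 Gy libraries, against a lowest of 888 CPM, a median of 1848 CPM and a highest of 2816 CPM in unirradiated libraries. Markers of other cells were read as well, and for every such list the ranges of the summed level overlapped between 1x10 Gy and unirradiated libraries. Of 12 granulocyte markers 11 were detected in irradiated libraries, with Ly6g at 0, and they summed to 1120 to 1400 CPM in 1x10 Gy libraries and 747 to 1480 CPM in unirradiated libraries. Of 11 T and NK cell markers 8 were detected, with Cd3e, Cd8a and Trac at 0, at 2.51 to 7.0 CPM in 1x10 Gy libraries and 0.195 to 24.4 CPM in unirradiated libraries. The 16 markers of monocyte-derived macrophages summed to 282 to 412 CPM in 1x10 Gy libraries and 121 to 614 CPM in unirradiated libraries, and the 12 of border macrophages to 615 to 1090 CPM in 1x10 Gy libraries and 262 to 1690 CPM in unirradiated libraries. The 12 dendritic cell markers summed to 941 to 1280 CPM in 1x10 Gy libraries and 765 to 1770 CPM in unirradiated libraries, and 9 B cell markers, 7 of them detected, to 346 to 425 CPM in 1x10 Gy libraries and 183 to 671 CPM in unirradiated libraries. The summed level of 10 astrocyte markers was 264 to 549 CPM in 1x10 Gy libraries and 155 to 417 CPM in unirradiated libraries, with all 10 detected. That of 6 epithelial tumour markers, 5 of them detected and Krt19 at 0, was 12.3 to 14.5 CPM in 1x10 Gy libraries and 0.393 to 12.4 CPM in unirradiated libraries. The medians of this sum were 14.3 CPM in 1x10 Gy and 3.53 CPM in unirradiated libraries. Its ranges overlapped only between 12.3 and 12.4 CPM. The part of other cells in the results was not tested. Unirradiated small-stage libraries 1 and 4 stand apart in detecting 32827 and 34629 genes, and small-stage library 3 and large-stage library 5 in a ribosomal protein share of 0.929% and 0.917% of counts.

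The genes called higher after 1x10 Gy were few, and p53 targets were among them. Of 19754 genes tested, 20 were higher in 1x10 Gy than in unirradiated microglia and 0 were lower (edgeR quasi-likelihood test, Benjamini-Hochberg adjusted p under 0.05), which is 0.101% and 0% of the genes tested. A list of 34 p53 targets was drawn up with earlier results of these data known. Of the 20 genes, 9 belong to it: Phlda3, Ccng1, Mdm2, Ephx1, Ak1, Trp53inp1, Cdkn1a, Bax and Eda2r. The others were Map3k20, Inka2, Matn1, Sulf2, Exoc4, Mmp2, Slc19a2, Rbl2, Abca1, D630023F18Rik and Gm17597. An unadjusted p under 0.05 was reached by 1603 genes, and the median log2 fold change of all genes tested was -0.175, with 38.6% of genes above 0. The counts depend on the test. DESeq2 called 32 genes higher and 133 lower, with all 20 among them. Limma voom with sample weights called 691 higher and 1024 lower, with 19 of the 20 among them. Without the libraries of doubtful quality (small-stage 1 and 4 and 3 other microglia libraries of the fit) 26 genes were higher and 1, Dot1l, was lower, and without the 2 of the 13 libraries with the highest ribosomal protein share 16 were called. A gene is called below where it passed the edgeR test, unless another tool is named.

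Where a promoter of a called gene holds a p53 recognition unit, the 250 bases before its RefSeq start (GRCm38.p6) show how close to the start that unit lies. The motif searched was the p53 half-site, a sequence of 10 bases that is its own reverse complement as a pattern, in windows of 250 bases before to 50 bases after the start. It was present in 8 of the 18 called genes with a window (44.4%), in 10 of 27 listed p53 targets (37%), and in 2582 of all 27025 genes with a window (9.55%). Genes with several starts count once. The sequences below, 5′ to 3′ on the gene's strand, are shown because these genes rose and carry the motif, which is in capitals. A match is a description and not a shown site of binding.
27SEQ27
The Cdkn1a window, at the more upstream of 2 starts, holds 2 motifs, which begin 73 and 51 bases before the start. The single motifs of Ccng1, Mdm2, Inka2 and Bax begin 185, 186, 81 and 201 bases before their starts. The windows of Phlda3, Map3k20, Matn1 and Ephx1 hold no such letters.

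Cdkn1a, Mdm2, Ccng1 and Rbl2 are called genes whose products act on the cell cycle or on p53, and each was higher in every irradiated library than in any unirradiated one. The same held for 19 of the 20 called genes, which were picked by their difference between these libraries. Rbl2 was the only called gene of 24 tested in a list of E2F and cyclin control, which had a median log2 fold change of -0.13. Cdkn1a (chromosome 17, 29090976 to 29100727, plus strand, GRCm38) encodes p21, the inhibitor of cyclin-dependent kinases that holds cells in G1. It read 1609, 1348 and 1436 CPM in the 1x10 Gy libraries, against 274 CPM at the lowest, 454 CPM at the median and 621 CPM at the highest in the 10 unirradiated libraries. The lowest irradiated library lay above the highest unirradiated one, and the log2 fold change was 1.72 ± 0.30 (SE; edgeR adjusted p = 0.00396). Mdm2 (chromosome 10, 117688875 to 117710758, minus strand), the ubiquitin ligase that marks p53 for degradation, read 368, 383 and 303 CPM in 1x10 Gy libraries, against 93.1, 127 and 160 CPM as the lowest, median and highest in unirradiated libraries. Its log2 fold change was 1.45 ± 0.18 (edgeR adjusted p = 1.57e-05). Ccng1 (chromosome 11, 40748552 to 40755311, minus strand) encodes cyclin G1, which brings a phosphatase to Mdm2. Its level was 707, 714 and 434 CPM in 1x10 Gy libraries, against 98.5, 135 and 178 CPM as the lowest, median and highest in unirradiated libraries, and its log2 fold change was 2.17 ± 0.25 (edgeR adjusted p = 7.36e-06). Rbl2, the pocket protein p130 that represses E2F targets in resting cells, read 108, 103 and 85.4 CPM in 1x10 Gy libraries and 34.3 to 60.1 CPM in unirradiated libraries. Its log2 fold change was 1.198 ± 0.25 (edgeR adjusted p = 0.0425), and the call was lost under 16 of 24 alternative settings. Rbl2 overlaps Aktip on the opposite strand, and reads of the pair cannot be told apart, since no source used here gives the strand of counting. Trp53 itself did not pass. It read 90.0, 79.4 and 83.0 CPM in 1x10 Gy libraries and 54.8 to 113 CPM in unirradiated libraries, ranges that overlap, with a log2 fold change of 0.10 ± 0.25 (edgeR adjusted p = 0.949).

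Phlda3 had the largest log2 fold change among the p53 targets, although with the large stage alone Eda2r was at 5.04 and Phlda3 at 4.90. It is a small protein with a pleckstrin homology domain that competes with the kinase Akt for membrane lipids and so dampens Akt signalling. The gene lies on chromosome 1, 135766119 to 135769136, plus strand. It held 1168, 436 and 447 counts, or 93.9, 39.9 and 34.1 CPM, in 1x10 Gy libraries, against a lowest of 0.288 CPM, a median of 1.22 CPM and a highest of 3.39 CPM in unirradiated libraries. The gene was near the floor of detection without irradiation, with 3 to 57 counts per library, and its log2 fold change was 5.40 ± 0.48 (edgeR adjusted p = 3.25e-08). Library 1 lay above the other 2 irradiated ones, and Phlda3 kept its call under every one of the 24 alternatives that were run, without library 1 included.

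Genes that act in cell death were mixed. Bax, which opens pores in the mitochondrial outer membrane, read 123, 103 and 94.3 CPM in 1x10 Gy libraries, against 37.7, 55.2 and 60.9 CPM as the lowest, median and highest in unirradiated libraries (log2 fold change 1.03 ± 0.20, edgeR adjusted p = 0.0223). Trp53inp1, a stress protein that acts with p53 in autophagy and cell death, read 192, 268 and 189 CPM in 1x10 Gy libraries and 40.2 to 99.7 CPM in unirradiated libraries, without overlap (1.91 ± 0.33, edgeR adjusted p = 0.00322). Eda2r (X chromosome), a receptor of the tumour necrosis factor family that binds ectodysplasin A2, was at low levels, with 27, 47 and 15 counts in 1x10 Gy libraries, against 0 to 6 counts in unirradiated libraries. Its libraries did not overlap and its log2 fold change was 4.23 ± 0.88 (edgeR adjusted p = 0.0425). The call was lost under 18 of 23 alternatives. Bbc3 (Puma), which frees Bax from its inhibitors, did not pass and its libraries overlapped, at 23.6 to 28.5 CPM in 1x10 Gy libraries and 6.83 to 29.7 CPM in unirradiated libraries (1.08 ± 0.36, edgeR adjusted p = 0.472). Fas, the death receptor, at 0.34 ± 0.41, Pmaip1 (Noxa) at 0.41 ± 0.27 and Apaf1, the core of the apoptosome, at 0.40 ± 0.25 did not pass either. In a separate list of 22 genes of the mitochondrial pathway of apoptosis that does not hold these p53 targets, 0 of 21 tested passed the edgeR test, and the median log2 fold change was -0.15.

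The remaining called members of the p53 list act in metabolism. Ephx1, the microsomal epoxide hydrolase, read 112, 86.7 and 57.8 CPM in 1x10 Gy libraries and 22.1 to 36.9 CPM in unirradiated libraries (1.59 ± 0.22, edgeR adjusted p = 0.000183). Ak1, an adenylate kinase that balances ATP, ADP and AMP, read 650, 629 and 444 CPM in 1x10 Gy libraries and 153 to 380 CPM in unirradiated libraries (1.35 ± 0.22, edgeR adjusted p = 0.00135). For both genes the irradiated libraries lay above all 10 unirradiated ones.

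**Figure D1:**
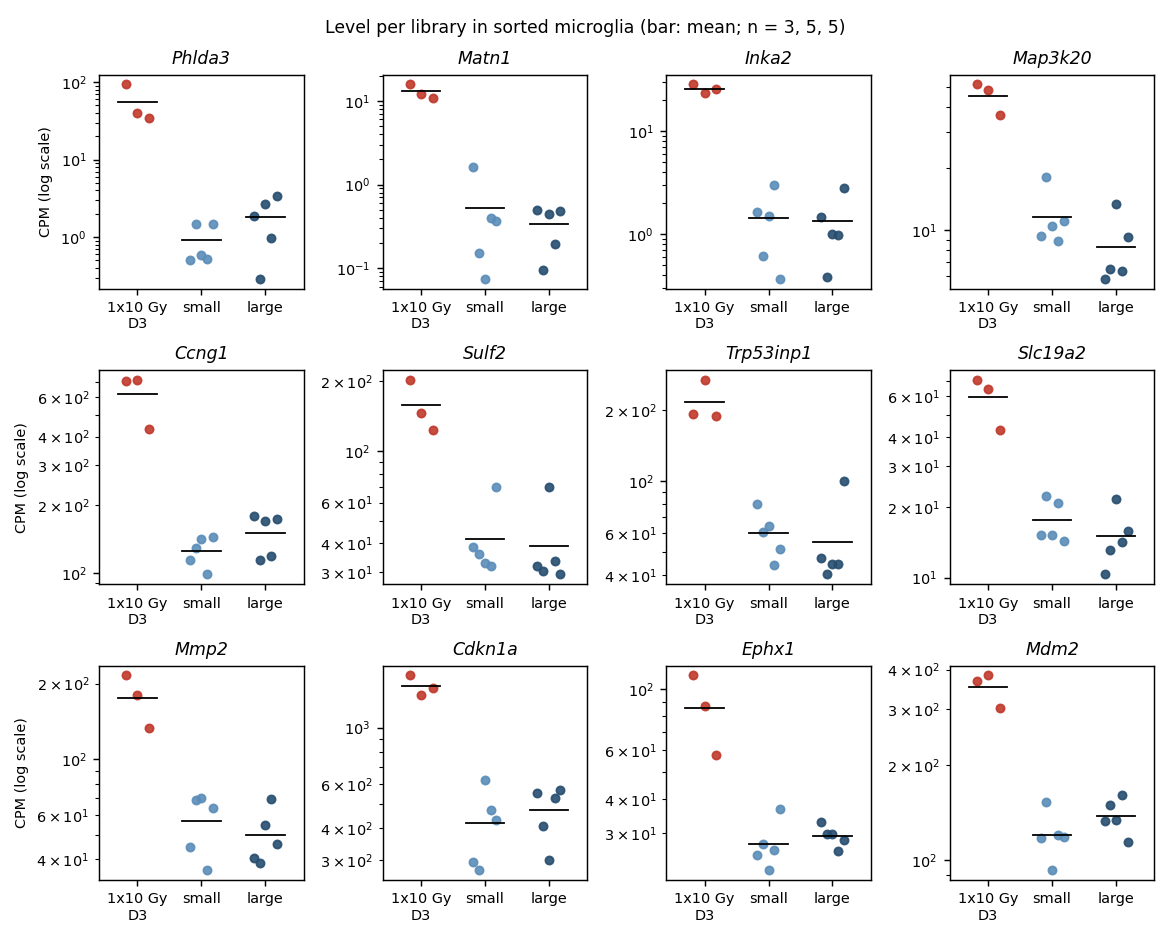
Level of 12 called genes in each microglia library, in CPM on a log scale: 1x10 Gy D3 (3 libraries, red), then unirradiated small (5) and large (5); each point is a library and the bar is the group mean. The genes were chosen for having no overlap, so the 3 irradiated libraries lie above the 10 unirradiated ones in all 12 panels.

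Beyond the 9 called members, the p53 list had one sign throughout. All 34 listed targets were tested and all 34 had a log2 fold change above 0, with a median of 0.74, against a median of -0.175 and 38.6% above 0 over all genes tested. Because the list was drawn up with earlier results of these data known, such counts are not independent support for a p53 response. Perp, at 0.03 ± 0.69, turned to -0.0084 with RLE scaling in place of TMM. The 3 irradiated libraries lay above all 10 unirradiated libraries for 14 of the 34 members, against 324 of 19754 genes tested (1.64%). Of the 25 members that did not pass, 10 had an unadjusted p under 0.05 and the median was 0.49. Psrc1, a microtubule protein of the mitotic spindle, had the largest difference among them, at 8.53 to 11.98 CPM in 1x10 Gy libraries and 0.0961 to 3.19 CPM in unirradiated libraries (2.56 ± 0.57, edgeR adjusted p = 0.0772). Aen, a nuclease induced by p53, at 60.8 to 74.5 CPM in 1x10 Gy libraries and 17.8 to 33.9 CPM in unirradiated libraries, also missed the threshold (1.44 ± 0.32, edgeR adjusted p = 0.0779). Sesn2, a sestrin that restrains mTOR, read 173 to 217 CPM in 1x10 Gy libraries and 47.7 to 154 CPM in unirradiated libraries (1.08 ± 0.29, edgeR adjusted p = 0.317). Ei24 and Plk2 also had libraries that did not overlap. At the other end, Btg2, an antiproliferative gene with the highest level in the list, read 3084 to 3823 CPM in 1x10 Gy libraries and 1927 to 3895 CPM in unirradiated libraries (0.37 ± 0.20). The repair genes Xpc and Ercc5 were at 0.29 ± 0.36 and 0.21 ± 0.19. Among 12 regulators of p53, such as Mdm4, Trp53bp1, Usp7 and Cop1, 0 passed the edgeR test and the median was 0.27.

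**Figure D2:**
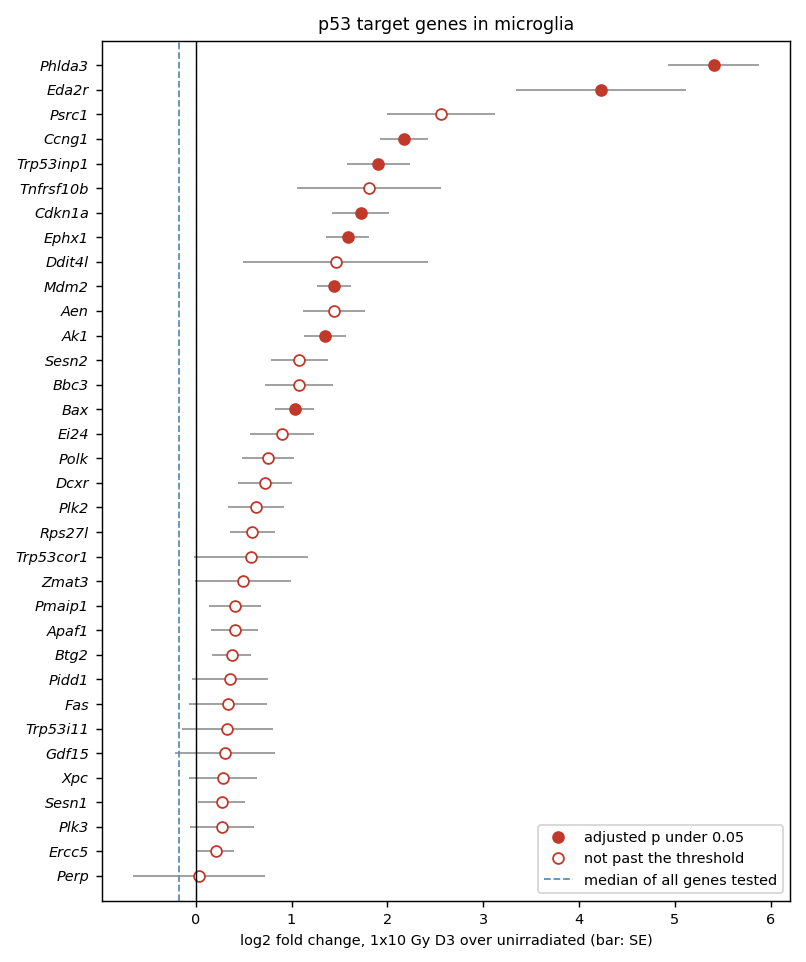
Log2 fold change of each of the 34 p53 targets, 1x10 Gy D3 over unirradiated microglia, with its SE; filled points passed the edgeR test at an adjusted p under 0.05. All 34 points lie right of 0, and 9 are filled; the dashed line is the median of all genes tested, -0.175.

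The 11 called genes outside the p53 list include signalling, matrix and transport genes. Map3k20 (chromosome 2), the stress kinase ZAK that senses stalled ribosomes, read 51.4, 48.0 and 36.5 CPM in 1x10 Gy libraries, against 5.79, 9.32 and 18.2 CPM as the lowest, median and highest in unirradiated libraries (2.21 ± 0.27, edgeR adjusted p = 1.57e-05). Inka2 (chromosome 3), an inhibitor of the cytoskeletal kinase Pak4, read 28.4, 23.3 and 25.4 CPM in 1x10 Gy libraries and 0.368 to 3.01 CPM in unirradiated libraries (4.22 ± 0.52, edgeR adjusted p = 1.57e-05). Matn1 (chromosome 4), a matrilin best known from cartilage matrix, held 197, 133 and 144 counts in 1x10 Gy libraries and 1 to 16 counts in unirradiated libraries (4.92 ± 0.62, edgeR adjusted p = 2.06e-05). These 3 genes kept their call under every alternative that was run. Sulf2, an extracellular enzyme that trims sulfate groups from heparan sulfate, read 203, 146 and 124 CPM in 1x10 Gy libraries and 29.4 to 70.0 CPM in unirradiated libraries (1.96 ± 0.32, edgeR adjusted p = 0.00141). It overlaps Ncoa3 on the opposite strand. Mmp2, a gelatinase, read 216, 180 and 133 CPM in 1x10 Gy libraries and 36.2 to 70.1 CPM in unirradiated libraries (1.73 ± 0.30, edgeR adjusted p = 0.00396). Slc19a2, a thiamine transporter, read 70.8, 64.6 and 43.0 CPM in 1x10 Gy libraries and 10.3 to 22.5 CPM in unirradiated libraries (1.87 ± 0.33, edgeR adjusted p = 0.00396). In all 6 of these genes the irradiated libraries lay above the unirradiated ones. This followed from the choice of genes, since all 6 met a naming rule that asked for no overlap between libraries. Abca1, the transporter that loads cholesterol onto apolipoproteins, had the smallest change of the 20. It read 1493, 1500 and 1459 CPM in 1x10 Gy libraries and 751 to 1068 CPM in unirradiated libraries (0.76 ± 0.16, edgeR adjusted p = 0.0494). The call was lost under 17 of 24 alternatives.

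Exoc4, D630023F18Rik and Gm17597 fall outside the rule by which genes were named and are given after their values were seen, so that all 20 are accounted for. Exoc4, a subunit of the exocyst that tethers secretory vesicles, read 225, 239 and 160 CPM in 1x10 Gy libraries and 63.9 to 125 CPM in unirradiated libraries (1.12 ± 0.19, edgeR adjusted p = 0.00224). D630023F18Rik, a protein-coding gene model on chromosome 1, held 133, 59 and 55 counts in 1x10 Gy libraries and 0 to 7 counts in unirradiated libraries (5.72 ± 0.85, edgeR adjusted p = 0.000679). Gm17597, an antisense gene model within Tef on chromosome 15, held 0, 8 and 109 counts in 1x10 Gy libraries and 0 to 2 counts in unirradiated libraries. Its call rests on irradiated library 3, its groups overlap, and the call was lost under 19 of 22 alternatives. Its reads and those of Tef, which held 4703 counts over the irradiated libraries, cannot be told apart.

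Against either stage of the unirradiated tumours these genes had the same sign. All 20 had a positive log2 fold change against the small stage alone and against the large stage alone, and between the large and the small stage 0 of the 20 passed and 0 had an unadjusted p under 0.05 (edgeR). With a single stage the number of genes called was 12 against small and 13 against large. Without irradiated library 1 it was 10 and without irradiated library 2 it was 12.

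Outside the p53 list few listed genes were called by edgeR. Among 33 lists, 28 had no called member, where 0.101% of all genes tested were called higher and 0% lower, so that a count of 0 in a list of this size is near the background. Outside the p53 list the called members were Rbl2 among E2F and cyclin genes, Abca1 among lipid genes, Mmp2 among growth factors and matrix, and Cdkn1a among senescence genes. DESeq2 also called 1 gene of alternative activation lower. Limma voom with sample weights, which called 1715 of all genes, called a member in 27 of the 33 lists. All 26 mitosis genes had a log2 fold change below 0, with a median of -0.52, but 0 of 26 passed the edgeR test, 1 had an unadjusted p under 0.05, DESeq2 called 0 and limma voom called 1, lower. The median was -0.81 against the small stage alone, -0.26 against the large stage alone and -0.945 with limma voom. Mki67, the proliferation antigen, read 3.30, 20.3 and 39.5 CPM in 1x10 Gy libraries, against 7.21, 34.5 and 72.4 CPM as the lowest, median and highest in unirradiated libraries (-0.95 ± 0.67, edgeR adjusted p = 0.673). Its irradiated libraries spanned a wide range and overlapped the unirradiated ones. The medians were -0.26 for 32 DNA replication genes and -0.15 for 28 DNA repair genes, with 0 called in each by edgeR. In bulk libraries of sorted cells, fewer dividing cells and less of these RNAs per cell cannot be told apart.

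Interferon-stimulated genes, a response known from irradiated tissue, stood at a median log2 fold change of 0.11 with 0 of 32 called by edgeR, DESeq2 or limma voom, between -0.525 and 0.362. The sign of the median turned with the stage, at -0.081 against the small stage alone and 0.285 against the large stage alone. Ifit3, an antiviral effector, read 153, 228 and 187 CPM in 1x10 Gy libraries and 128 to 336 CPM in unirradiated libraries (-0.18 ± 0.33). In the edgeR test 0 of 26 inflammatory and NF-kB genes (median -0.28) and 0 of 22 CC and CXC chemokine genes (median -0.65) passed. Limma voom called 1 higher and 1 lower among the inflammatory genes and 1 higher among the chemokines. Among 25 tested genes of disease-associated microglia the median was -0.12, and Apoe, the lipid carrier of that state, read 9441, 7671 and 8556 CPM in 1x10 Gy libraries and 5424 to 13140 CPM in unirradiated libraries. The 26 homeostatic genes had a median of 0.18, which was 0.072 against the small stage alone and 0.27 against the large stage alone. EdgeR called 0 of them, and limma voom called 4 higher, among them Sall1. Tmem119 was at 0.38 ± 0.22, Sall1, the transcription factor of microglial identity, at 0.49 ± 0.27, and Cx3cr1, the fractalkine receptor, at 0.13 ± 0.25. Phagocytosis receptors had the highest median after the p53 list, 0.42, with 17 of 22 above 0 and 0 called by edgeR. Limma voom called 5 higher and 1 lower, and the median was 0.56 against the small stage alone and 0.21 against the large stage alone. Of the markers of cells from the blood, edgeR and DESeq2 called 0. Limma voom called 2 markers of monocyte-derived macrophages and 1 of dendritic cells lower and 1 of granulocytes higher. Among the other marker lists it called 1 of border macrophages and 2 of 5 tested epithelial tumour markers higher. Itga4, the integrin of monocyte-derived macrophages, was at -1.09 ± 0.63, Ccr2 at -0.20 ± 0.90 and Ly6c2, with at most 1.84 CPM in any of the 13 libraries, at 0.80 ± 1.15.

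**Figure D3:**
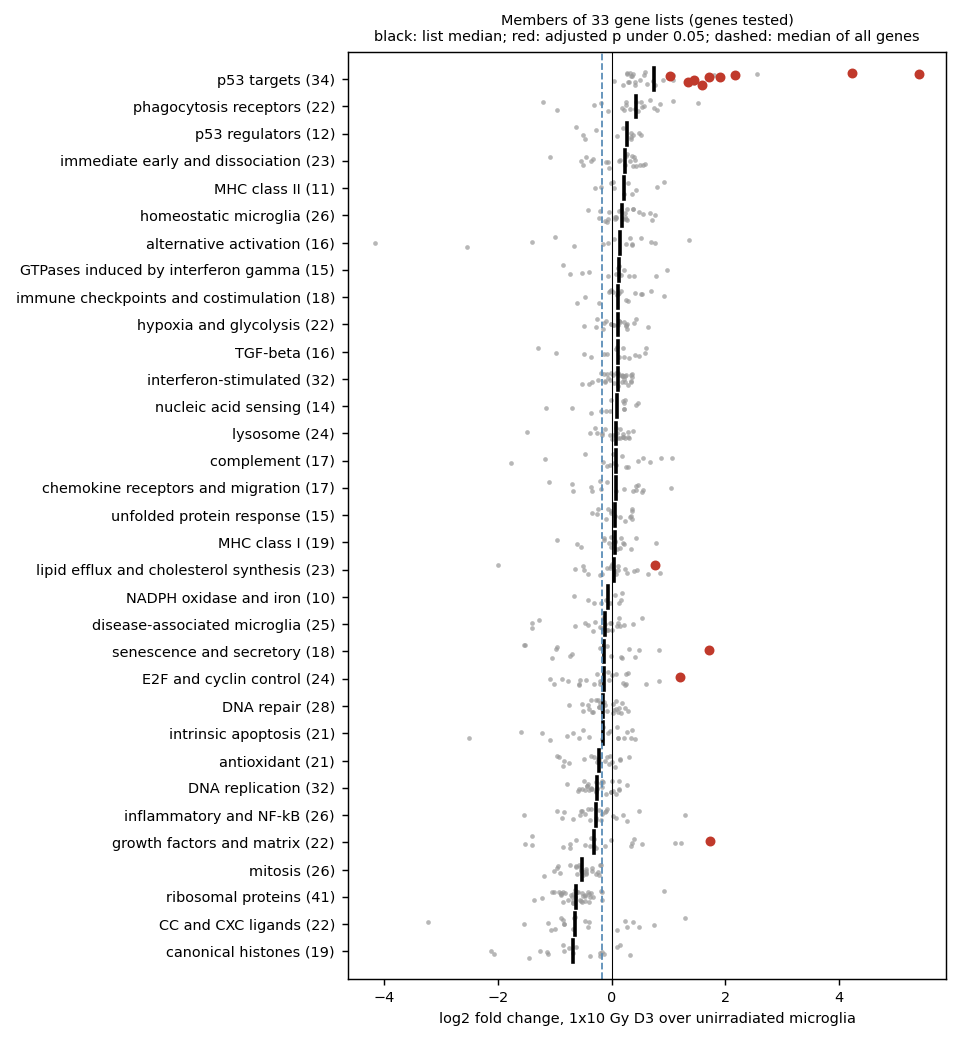
Log2 fold change, 1x10 Gy D3 over unirradiated microglia, of every tested member of 33 gene lists; the number of members tested is beside each name, black bars are list medians, red points passed the edgeR test and the dashed line is the median of all genes tested. The p53 targets have the highest median, 0.74, and 9 red points; canonical histones have the lowest, -0.67, and none.

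Promoter motifs were also counted for 2 lists in which no gene passed the edgeR test. CCAAT, on either strand, was in 18 of 22 mitosis promoters (81.8%), against 41.1% of all genes with a window, and TTTGAA, on either strand, was in 17 of 22 (77.3%), against 20.2%. The interferon-stimulated response element core, on either strand, was in 14 of 23 promoters of interferon-stimulated genes (60.9%), against 3.99%. These shares describe the lists and not a response to irradiation, since no expression value entered the counts.

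Single-fraction and fractionated radiotherapy were then compared directly on day 3. Both full courses sum to 10 Gy, as 1 fraction of 10 Gy or 5 of 2 Gy, and both are labelled day 3. Since the event from which the day is counted is not given, the dose received by sampling may differ between them. Of 19754 genes, 0 differed between 1x10 Gy and 5x2 Gy microglia in the edgeR test (0%). An unadjusted p under 0.05 was reached by 1030 genes, the smallest adjusted p was 0.751, and DESeq2 called 34, of which 33 were lower in 1x10 Gy. Phlda3 averaged 56.0 ± 33.00 CPM in 1x10 Gy libraries (SD, n = 3) and 20.9 ± 8.27 CPM in 5x2 Gy libraries (SD, n = 4), a log2 difference of 1.42 ± 0.58 (SE). The ranges, 34.1 to 93.9 and 9.82 to 29.8 CPM, did not overlap. Cdkn1a averaged 1464 ± 133 CPM in 1x10 Gy libraries and 1435 ± 201 CPM in 5x2 Gy libraries, a log2 difference of 0.03 ± 0.38. Mdm2 averaged 351 ± 42.5 CPM in 1x10 Gy libraries and 261 ± 77.9 CPM in 5x2 Gy libraries (0.43 ± 0.22). Ccng1 averaged 618 ± 160 CPM in 1x10 Gy libraries and 437 ± 65.7 CPM in 5x2 Gy libraries (0.50 ± 0.32). Over the whole p53 list, 29 of 34 members had a positive difference, with a median of 0.36 and 0 called by edgeR. The median over all genes tested was -0.134. Without the 9 members called after 1x10 Gy, 20 of 25 had a positive difference, with a median of 0.292. Because the list was drawn up with earlier results of these data known, such counts are not independent support for a larger p53 response. The 20 genes called after 1x10 Gy were picked by their level in these same libraries, and all 20 had a positive difference, with a median of 0.58 and 4 at an unadjusted p under 0.05.

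Set against the same unirradiated libraries, 5x2 Gy microglia had 12 genes higher (0.0607%), 10 of them among the 20 named above; the other 2, named after their values were seen, were Trpm2 and Prune2. The log2 fold change of Phlda3 was 5.40 after 1x10 Gy and 3.98 after 5x2 Gy, that of Cdkn1a 1.72 and 1.69, and that of Matn1 4.92 and 3.94. For the mitosis genes the median was -0.52 after 1x10 Gy and -1.81 after 5x2 Gy. In the direct comparison 25 of 26 were higher after 1x10 Gy, with a median of 1.21, 3 at an unadjusted p under 0.05 and 0 called by edgeR. The interferon-stimulated genes had a median of 0.11 after 1x10 Gy and -0.285 after 5x2 Gy, with 0 of 32 called by edgeR in the direct comparison.

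Mean levels of the genes given here on the days of the fractionated course were between those after 1x10 Gy and those without irradiation. Cdkn1a averaged 1435 ± 201 CPM on day 3 (n = 4), 1204 ± 347 CPM on day 5 (n = 4) and 762 ± 88.3 CPM on day 10 (SD, n = 3), against 420 ± 142 CPM in small-stage, 471 ± 114 CPM in large-stage (n = 5 each) and 74.6 ± 37.8 CPM in tumour-free unirradiated microglia (n = 4). Inka2 averaged 17.2 ± 3.23, 13.8 ± 8.38 and 8.37 ± 7.63 CPM on days 3, 5 and 10, and these ranges overlapped. Phlda3, at 20.9 ± 8.27, 13.8 ± 4.73 and 14.8 ± 2.81 CPM on these days, was above the highest small-stage, large-stage or tumour-free library, 3.39 CPM, in every library of these days. No library of the single-fraction schedule after day 3 was analysed here.

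**Figure D4:**
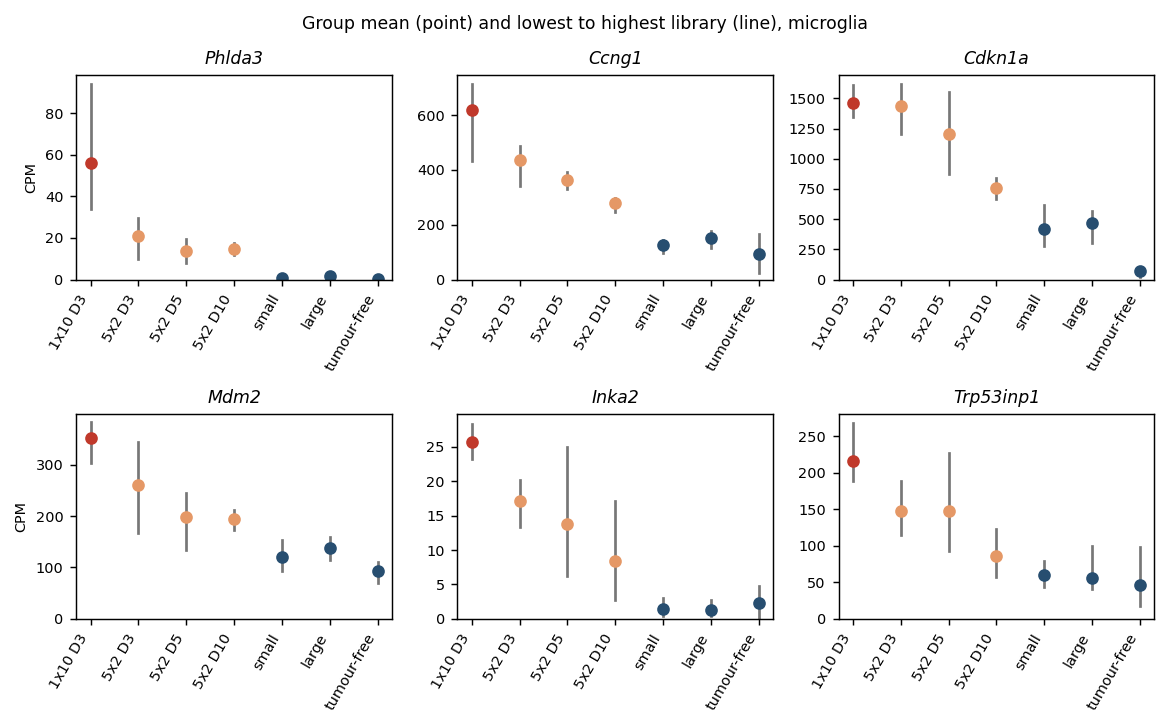
Mean level (point) and range from the lowest to the highest library (line), in CPM, of 6 called genes in 7 groups of microglia: 1x10 Gy D3 (red), 5x2 Gy on day 3, day 5 and day 10 (orange), and unirradiated small, large and tumour-free (blue). Phlda3 averages 56.0 CPM after 1x10 Gy and 0.429 CPM in tumour-free microglia.

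The same single dose was compared between microglia and monocyte-derived macrophages of these brains. In macrophages 3 of 18357 genes passed (0.0163%), Phlda3 and Ccng1, which were higher, and Lck, a kinase of T cells, which was lower. An unadjusted p under 0.05 was reached by 1965 genes. The difference of the responses, tested as an interaction, passed for 0 of 18357 genes (0%), with 423 at an unadjusted p under 0.05. Microglia and macrophage libraries may come from the same animals, which the labels do not say, and the fit did not pair them. The smallest adjusted p was 1.0, and DESeq2 called 9 genes. Among these Itgae was at a log2 difference of 2.425. The rest had extreme values, from -30.58 (Aldh8a1) to -17.33 (Gm43611) or from 16.42 (Gm38404) to 18.38 (Gm16853), and their cause was not tested. Phlda3 averaged 21.2 ± 16.9 CPM in 1x10 Gy macrophages (SD, n = 3), against 1.99 ± 1.02 CPM in small-stage and 0.895 ± 0.63 CPM in large-stage macrophages (n = 5 each). Its log2 fold change of 3.98 ± 0.57 differed from that of microglia by 1.42 ± 0.91. Cdkn1a averaged 850 ± 156 CPM in 1x10 Gy macrophages, against 600 ± 171 CPM in small-stage and 681 ± 155 CPM in large-stage macrophages. The log2 fold change was 0.41 ± 0.24, and the difference from microglia was 1.30 ± 0.35. For Trp53inp1 the log2 fold change in macrophages was 0.35 ± 0.32 and the difference 1.54 ± 0.47, and for Ephx1 these were 1.81 ± 0.36 and -0.23 ± 0.55. Of the 19 called genes tested in both kinds of cell, 16 had a larger log2 fold change in microglia and 7 differed at an unadjusted p under 0.05, but the genes were picked by their level in microglia. Over the p53 list the median log2 fold change was 0.74 in microglia (34 genes) and 0.28 in macrophages (33 genes). The change was larger in microglia for 27 of 33, with 0 called by edgeR. The list was drawn up with earlier results of these data known, and 9 of its genes were called by their level in irradiated microglia. Among its members that were not called, the change was larger in microglia for 20 of 24. Their median difference was 0.459, against 0.007 over all genes tested. Such counts are not independent support for a larger response in microglia.

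**Figure D5:**
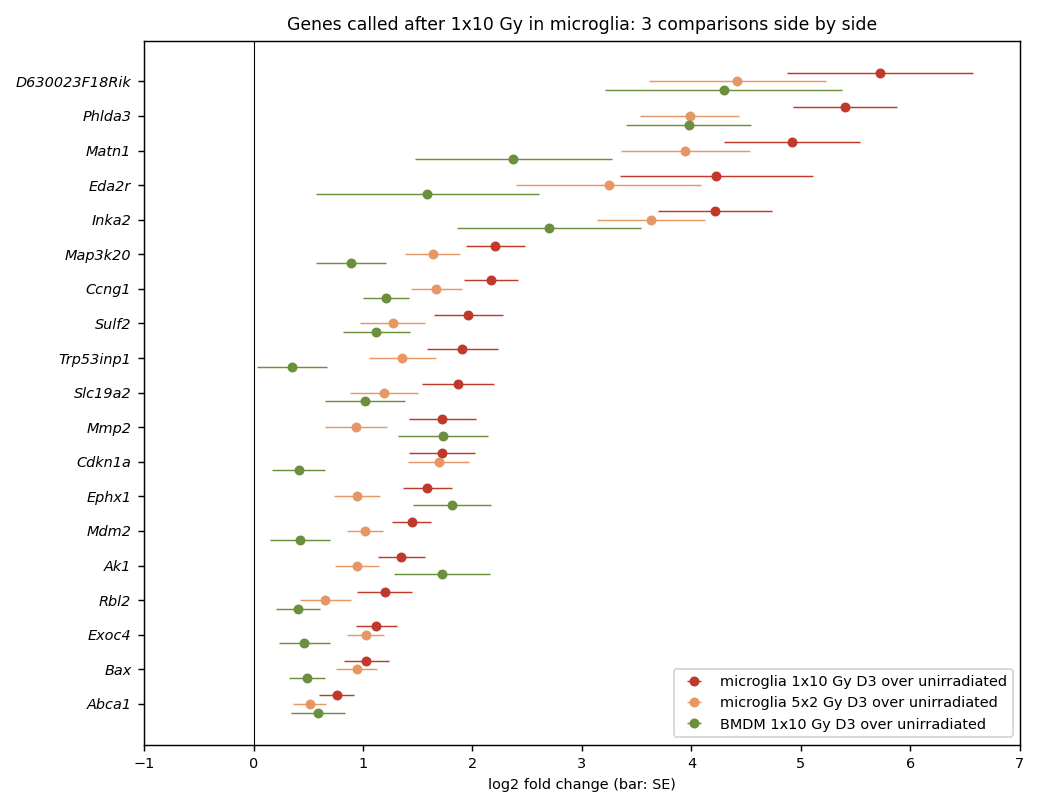
Log2 fold change with SE of 19 called genes in microglia after 1x10 Gy (red), microglia after 5x2 Gy (orange) and macrophages (BMDM) after 1x10 Gy (green), all on day 3 and each over unirradiated cells of its kind; Gm17597, not tested in macrophages, is left out. All points lie above 0; the 2 microglia comparisons share their unirradiated libraries.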

How the data were processed

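Microglia were sorted by flow cytometry and sequenced as bulk RNA, per the labels' protocols. Build GRCm38 and the tools TopHat2 2.0.14, HTSeq, FastQC and DESeq2 1.18.1 stand in the submitters' processing notes without their roles. The deposited table holds the authors' raw counts, whole numbers for 49585 genes in 108 libraries, used as deposited; no source used here gives the strand of counting or the annotation release. Coordinates come from GENCODE M21 (49326 IDs matched) and promoters from RefSeq GRCm38.p6.

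All 34 microglia libraries, or the 26 microglia and macrophage libraries for the interaction, were fitted together in R 4.3.3 with edgeR 4.0.16 (filterByExpr, minimum count 10 and total 15; TMM; quasi-likelihood test; 1 mean per group, no covariate), with Benjamini-Hochberg adjustment over all genes tested and a threshold of 0.05. Levels are CPM with TMM factors. With 3 irradiated libraries, changes of low genes carry wide errors.

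The members, gene lists and tests were chosen with earlier results of these data known. Genes were named by a rule: up to 12 called genes each way by size of log2 fold change, with a mean of 10 CPM or more and no overlap between libraries; up to 4 called members of each list; every p53 target; and 16 cell type and response genes. Alternatives were RLE scaling, 2 other filters, DESeq2 1.42.0, limma 3.58.1 voom with sample weights, a replicate block, the compared groups alone, either stage alone, leaving out libraries of doubtful quality or each library in turn, and, added after seeing the data, leaving out the 2 of the 13 compared libraries with the highest ribosomal protein share. The fits were tested on simulated data. Tables and figures were made in Python 3.11.15 with pandas 2.3.3 and matplotlib 3.10.9.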

Additional observations from a re-analysis of the deposited data

Results flagged for a closer look

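In the small-stage or the large-stage group of 5 libraries, 15 of 116 groups examined over 58 genes had 1 library whose gap to its nearest neighbour exceeded 0.71 of the group's range. Chance alone reaches that distance in about 1 in 20 groups of normally distributed values. The values here were CPM without a log scale, some near the floor, so that rate need not hold. Large-stage library 5 was highest for Trp53inp1 (99.7 CPM), Dcxr (208 CPM), Tnfrsf10b (2.08 CPM) and Trp53 (113 CPM). Large-stage library 3 was set apart for Sulf2 (69.7 CPM), S100a8 (25.5 CPM), Ccr2 (98.6 CPM) and, as the lowest, Pmaip1 (118 CPM). Large-stage library 4 was highest for Bbc3 (29.7 CPM), and large-stage library 1 for D630023F18Rik (0.687 CPM) and Fas (8.25 CPM). In the small stage, library 2 was highest for Map3k20 (18.2 CPM), library 1 for Matn1 (1.62 CPM), and library 5 for Sulf2 (70.0 CPM) and Ly6c2 (1.84 CPM). For the called genes Map3k20, Matn1, D630023F18Rik, Sulf2 and Trp53inp1 these libraries still lay below all 3 irradiated ones. The cause of these values was not tested.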

How the results depend on the processing

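The number of genes called between 1x10 Gy and unirradiated microglia, 20, became 165 with DESeq2 (32 higher, 133 lower), 1715 with limma voom (691 higher, 1024 lower), 98 with the compared groups alone (35 higher, 63 lower), 12 with the small stage alone and 13 with the large stage alone; leaving out 1 library at a time gave 10 to 20. Of the lower calls, 68 of 133 with DESeq2, 513 of 1024 with limma voom and 38 of 63 with the compared groups alone were gene models. With a replicate block it was 15. Same-numbered libraries correlated between -0.273 and 0.16 in their deviations from the group means of 1x10 Gy and either stage. No pairing by number was seen, but with 3 irradiated libraries these values cannot exclude it. For 1x10 Gy against 5x2 Gy the count of 0 became 34 with DESeq2 and ranged from 0 to 2 when 1 library was left out, the 2 being Ldhb and Gm5514, lower without irradiated library 3. For the interaction it became 9 with DESeq2, and both counts were 0 with the replicate block. Of the 20 genes, 7 kept their call in every alternative (Ccng1, Ephx1, Inka2, Map3k20, Matn1, Mdm2 and Phlda3); over all 20, 380 of 474 values kept it, 94 lost it and 0 changed sign. Among genes that were not called, the log2 fold change of Perp turned to -0.0084 with RLE scaling and with DESeq2 and -0.25 with the large stage alone, and ranged from -0.60 to 0.44 when 1 library was left out; Ccr2 turned to 0.51 with limma voom, 0.19 with the replicate block, 0.077 with the small stage alone and ranged from -0.52 to 0.51 when 1 library was left out; Ddit4l to -1.13 and Trp53i11 to -0.062 with the small stage alone; Gdf15 to -0.38 and Ifit3 to 0.017 with the large stage alone; Trp53 to -0.00066 in genes of 10 CPM or more; and Zmat3 ranged from -0.11 to 0.79 and Cx3cr1 from -0.034 to 0.26 when 1 library was left out, with the negative values without irradiated library 1. The cause was not tested.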

Other observations

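Ldhb, the B subunit of lactate dehydrogenase, and its gene model Gm5514, both singled out after their values were seen, split the 3 irradiated microglia libraries. Ldhb read 30.1, 29.6 and 387 CPM in 1x10 Gy libraries 1, 2 and 3, against 303 to 360 CPM in 5x2 Gy day 3 libraries and 170 to 483 CPM in unirradiated libraries. Gm5514 read 10.6, 10.8 and 102 CPM in 1x10 Gy libraries, against 41.3 to 132 CPM in unirradiated libraries. With all 3 irradiated libraries neither passed (Ldhb -1.26 ± 0.47, edgeR adjusted p = 0.521), and without library 3 both did, Ldhb at -3.57 (edgeR adjusted p = 2.03e-06). Libraries 1 and 2 were also the low ones in the other sorted cells after 1x10 Gy. In CPM of the library total, Ldhb was at 16.0, 8.44 and 124 in macrophages, 19.5, 19.3 and 61.1 in monocytes and 1.74, 2.42 and 8.55 in granulocytes of 1x10 Gy libraries 1, 2 and 3, against 35.6 to 292 in large-stage macrophages and 48.2 to 115 in large-stage monocytes. The labels do not say whether equal numbers mark the same animal, and the cause was not tested.

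Dot1l, a histone H3 methyltransferase also singled out after its values were seen, was the closest to a lower call: 17.9, 19.0 and 21.9 CPM in 1x10 Gy libraries, against 29.6 to 39.2 CPM in 5x2 Gy day 3 libraries and 32.9 to 85.3 CPM in unirradiated libraries, without overlap (-1.57 ± 0.34, edgeR adjusted p = 0.0526).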
